A study of Mus musculus with 3143 samples.

Results

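The heat shock chaperones are described here through 10 genes chosen by symbol: Hspa1a, Hspa1b, Hspa8, Hsph1, Dnaja1, Dnajb1, Bag3, Hspb1, Hsp90aa1 and Hsp90ab1. All 10 were found among the 46517 gene names of a raw read count table, and they were followed in 3143 single cells of the glomerular fraction of mouse kidney. The cells came from adult C57BL/6 mice labelled IgAN, for IgA nephropathy (1798 cells), and from adult C57BL/6 mice labelled Control (1345 cells). Levels are given as CPM, the reads of a gene per 1000000 reads in genes.

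The labels give neither the way IgAN was brought about nor the animals behind the cells, so each group counts as 1 sample and no test between groups was possible. Both groups had the same enzymatic digestion. Viable cells, picked by a dye, were sorted 1 to a well for Smart-seq2, a method that covers the whole length of polyadenylated RNA and uses no molecular identifiers. IgAN cells filled plates 313, 315, 316, 318, 322 and 325, and Control cells filled plates 314, 317, 321 and 326. No plate held both groups, so the 2 cannot be told apart. The plates of a group, and how far they spread, are shown because there are no replicates. With the animals unknown, that spread need not hold the variation between animals. No column name, and hence no well, was shared between cells.

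Heat shock chaperones bind proteins that are unfolded or not yet folded and keep them from clumping. HSP70 proteins hold and release such clients in a cycle driven by ATP. J-domain proteins bring the client and speed ATP hydrolysis, and nucleotide exchange factors such as HSP110 and BAG proteins reset the cycle. HSP90 proteins finish the folding of kinases, receptors and other clients, and small heat shock proteins hold unfolded chains without ATP. Hspa8 and Hsp90ab1 are the forms that most cells make at all times. Hspa1a, Hspa1b, Dnajb1, Hsph1, Bag3, Hspb1 and Hsp90aa1 are textbook targets of the heat shock factor HSF1, which binds inverted repeats of the unit GAA. Small heat shock proteins and Bag3 also serve the actin cytoskeleton and are prominent in contractile cells.

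The bases upstream of the genes are shown because such repeats lie within them. The unit was searched on both strands as GAANNTTC or TTCNNGAA in the 250 bases before each start in the RefSeq promoters of build GRCm38.p6. Of the 10 genes, 7 had an entry. The motif was found in 5 of these 7, namely Hspa1a, Hspa1b, Hspb1, Hsph1 and Dnaja1 (for Dnaja1 before 1 of its 3 annotated starts), or, counting promoters as for the whole genome, in 6 of the 11 entries of these 7 genes (54.5%), and in 12.8% of all 32851 promoters. The Bag3 and Dnajb1 windows did not hold these letters. The stretches of Hspa1a (chr17:34972157-34972406, minus strand) and Hspb1 (chr5:135887669-135887918, plus strand) are printed whole, 5′ to 3′, with the motif in capitals, since Hspa1a spanned the widest range of levels between cell classes and Hspb1 holds more than 1 match.
Hspa1a: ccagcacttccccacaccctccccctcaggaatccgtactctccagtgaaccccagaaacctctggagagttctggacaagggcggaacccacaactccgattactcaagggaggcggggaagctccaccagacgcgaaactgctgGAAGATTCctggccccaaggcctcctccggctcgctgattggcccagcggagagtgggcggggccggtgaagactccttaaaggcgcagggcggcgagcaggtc
Hspb1: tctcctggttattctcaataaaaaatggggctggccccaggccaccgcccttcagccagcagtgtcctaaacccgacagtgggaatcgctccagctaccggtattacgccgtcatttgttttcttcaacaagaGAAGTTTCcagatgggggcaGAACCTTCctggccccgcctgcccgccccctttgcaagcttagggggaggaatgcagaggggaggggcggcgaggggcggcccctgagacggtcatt
Hspb1 thus carried 2 matches, which begin 117 and 97 bases before its start, and Hspa1a carried 1, which begins 104 bases before. Shorter windows around the match are given for Hspa1b (chr17:34959327-34959350, minus strand), Hsph1 (chr5:149636354-149636377, minus strand) and Dnaja1 (chr4:40722336-40722359, plus strand) to show how the motif differs between genes.
Hspa1b: aactgctgGAAGATTCctggcccc
Hsph1: tagaatctTTCTCGAAggctcgag
Dnaja1: agcctctaGAAAATTCtacgaggc
The Hspa1a and Hspa1b windows hold the same 8 letters, and over the 250 bases these 2 genes differ at 3 positions. A match is a description of the letters and not a measured binding site. Runs of 3 alternating units were in none of the 7 genes and in 0.466% of all promoters.

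In the annotation GENCODE vM21 (GRCm38) Hspa1a is a gene of a single exon on chromosome 17, from 34969190 to 34972156, and Hspa1b lies beside it from 34956436 to 34959238. Hsp90ab1 is on the same chromosome, from 45567775 to 45573271, and Hsp90aa1 is on chromosome 12 from 110690605 to 110702728. Hspb1 (135887919 to 135889563) and Hsph1 (149614287 to 149636376) are on chromosome 5. Dnajb1 is on chromosome 8 from 83608193 to 83612653, Dnaja1 on chromosome 4 from 40722150 to 40737149, Hspa8 on chromosome 9 from 40800984 to 40810087 and Bag3 on chromosome 7 from 128523616 to 128546981. The coding sequences of Hspa1a and Hspa1b were identical at 1918 of 1926 aligned bases, so reads can be shared between them and each of the 2 values is uncertain. Hspa1a overlaps a gene on the opposite strand (Gm20481), as does Dnaja1 (Smu1 and Gm6297), and the strand setting of the counting is not given, so reads of such partners cannot be told apart.

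Depth ran from 50365 to 1135415 reads per cell, with a median of 231222 in IgAN and 241543 in Control. Cells were sorted into classes by clustering without the 10 chaperones and their network, and each class is called "like" a cell type because it rests on RNA alone. Endothelial-like cells were most numerous (1059 IgAN and 627 Control cells), and 11 of 11 endothelial markers were found in at least 25% of them. There were 103 and 46 mesangial-like cells, 40 and 146 podocyte-like cells, 151 and 85 proximal tubule-like cells, 176 and 99 macrophage or dendritic-like cells and 89 and 128 T or NK cell-like cells in IgAN and Control. The remaining named classes held at most 144 cells, and the 21 neutrophil-like cells were left out of the orders of classes below. Mesangial-like cells carried 7 of 7 mesangial markers, but also 5529 CPM of endothelial markers in IgAN and 5137 CPM in Control, and 40 of 103 IgAN and 11 of 46 Control cells carried markers of 2 main classes. In 41 cells the share of Gm13340 in the reads of Gm13340 and mt-Co1, which was 56.3% to 57.2% in the median cell of every IgAN plate and 0% to 0.621% in that of every Control plate, lay across 30% on the side of the opposite label. Of these cells 18 were on plate 318, 1 on plate 322 and 22 on plate 317. Without them the median differences given below were 0.24 in place of 0.23 in endothelial-like, 0.36 in place of 0.27 in mesangial-like, -0.11 as before in podocyte-like and 0.83 as before in proximal tubule-like cells.

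The first question was where in the kidney sample each chaperone was expressed. Among the classes kept in the orders, the inducible HSP70 genes Hspa1a and Hspa1b and the small heat shock protein gene Hspb1 differed most. The HSP90 genes differed least. The few neutrophil-like cells left out averaged 394 CPM of Hsp90ab1, 98.6 CPM of Hsp90aa1, 6.94 CPM of Bag3 and 6.46 CPM of Hsph1, each below all those classes. With them Bag3 and Hsph1 would span more than Hspb1, and the HSP90 genes more than Dnaja1. For Dnajb1 they were at 411 CPM, above all those classes. Hspa1a was at 477 CPM in IgAN and 404 CPM in Control endothelial-like cells, against 15.4 CPM in IgAN and 6.39 CPM in Control T or NK cell-like cells. Averaged over the groups, that is 40.5 times as high at the top of the order as at its foot. Hspa1b, at a lower level, spanned 33.6-fold between the same classes. Hspb1, which binds unfolded chains and actin filaments, was at 613 CPM in IgAN and 621 CPM in Control endothelial-like cells and averaged 22.2 times the level of the lowest class, T or NK cell-like.

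**Figure D1:**
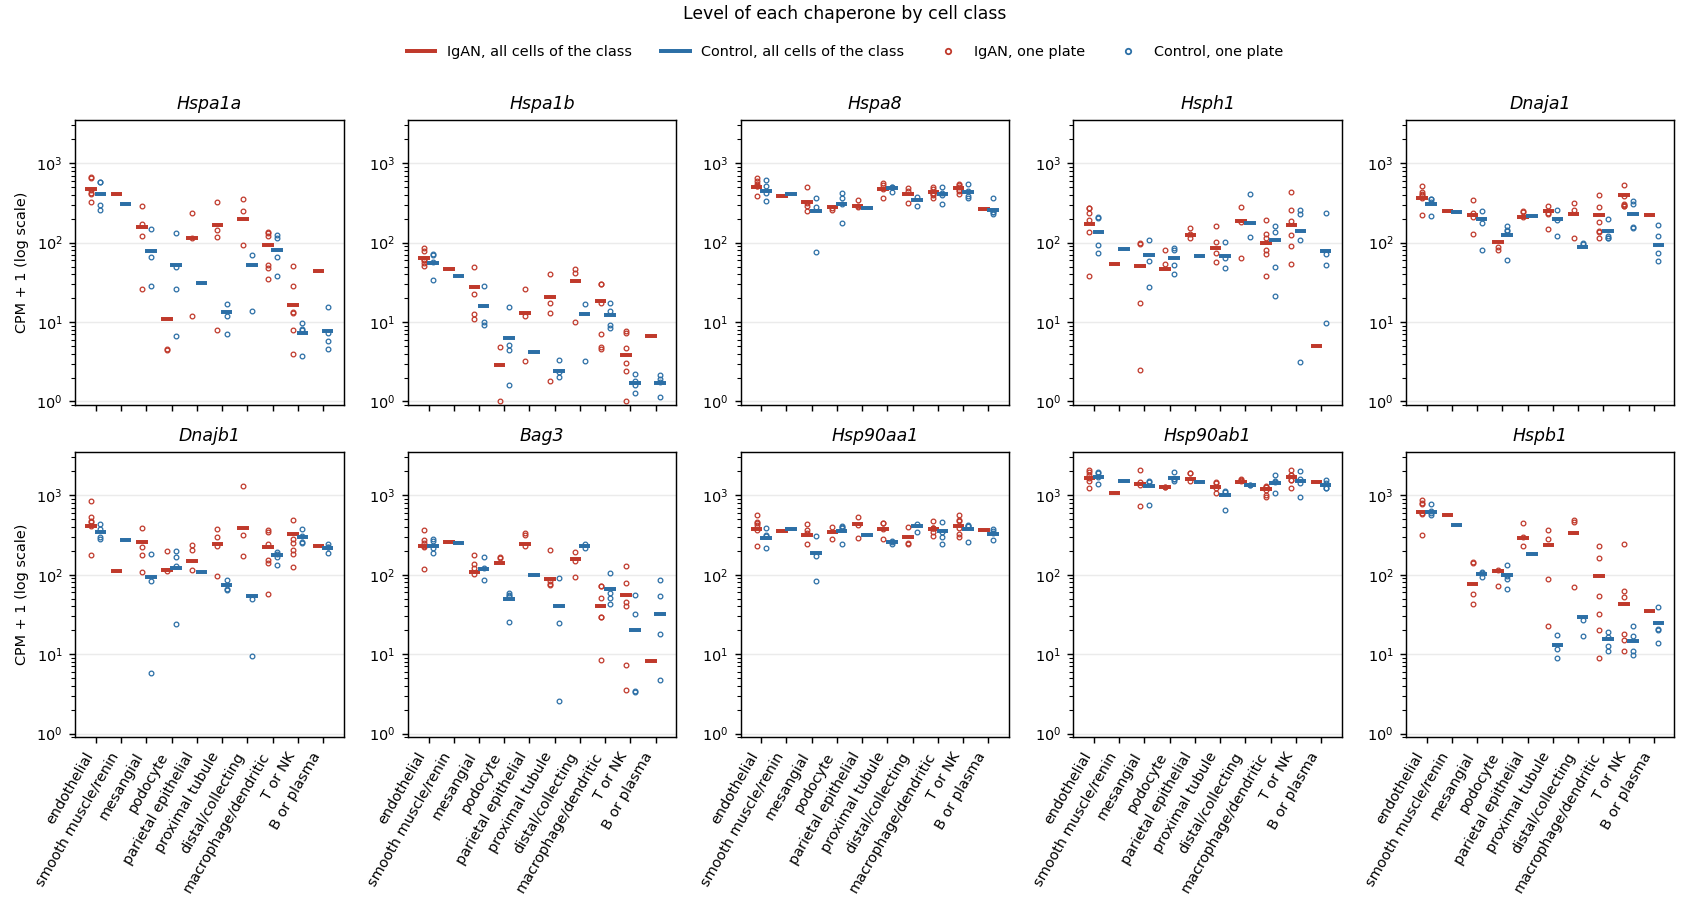
CPM + 1 on a log axis of each chaperone in 10 cell classes, IgAN left of Control in each class. Bars are the level over all cells of the class and open points single plates with at least 10 cells. Hspa1a, Hspa1b and Hspb1 span the widest ranges, with Hspa1a and Hspb1 at 440.5 and 617 CPM in endothelial-like cells as the mean of the groups, while Hsp90ab1 stays between 1154 and 1684 CPM.

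The order of classes differed by chaperone. For Hspa1a, endothelial-like cells were followed by smooth muscle or renin cell-like cells, at 412 CPM in IgAN and 304 CPM in Control, and then by distal tubule-like, mesangial-like and proximal tubule-like cells. Podocyte-like cells were near the foot, at 10.1 CPM in IgAN and 50.6 CPM in Control, with B or plasma cell-like cells at 43.0 and 6.82 CPM. Bag3, the exchange factor that ties HSP70 to small heat shock proteins, had its highest pooled level in smooth muscle or renin cell-like cells, at 255 CPM in IgAN and 247 CPM in Control. That class held only 24 IgAN and 17 Control cells and no plate with 10 of them, and its median Control cell was at 3.70 CPM. Endothelial-like cells were close, at 228 and 232 CPM. The lowest Bag3 level was in B or plasma cell-like cells, at 7.11 and 31.0 CPM. Hsph1, the HSP110 exchange factor, was highest in distal tubule or collecting duct-like cells, 4.48 times the lowest class as the mean of the groups. Dnajb1 and Dnaja1, the J-domain partners of HSP70, spanned 3.25-fold and 3.00-fold, with endothelial-like cells at the top and podocyte-like cells at the foot for both.

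Flatter than these over the classes kept were the constitutive genes Hspa8 and Hsp90ab1, and also the inducible Hsp90aa1. Hspa8 averaged 482 CPM in proximal tubule-like cells at the top and 262 CPM in B or plasma cell-like cells at the foot. Hsp90aa1 was the one chaperone led by T or NK cell-like cells, at 393 CPM as the mean of the groups, 1.55 times the lowest class. Hsp90ab1 spanned 1.46-fold, with 1684 CPM in endothelial-like cells. Together the 10 genes took 4708 CPM in endothelial-like cells and 2518 CPM in B or plasma cell-like cells as the mean of the groups.

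Most steps in these orders were within the spread of plates. Over 9 classes with at least 3 plates, neighbours in the order overlapped in 8 of 8 steps for every chaperone but Bag3, for which 1 step was apart (parietal epithelial-like above mesangial-like). The 3 parietal epithelial-like plates were all IgAN plates, while the mesangial-like ones came from both groups. In Control the pooled Bag3 level was lower in parietal epithelial-like cells, at 98.5 CPM, than in mesangial-like cells, at 118 CPM. The plates of B or plasma cell-like cells were all Control plates. Of all 36 pairs of classes, the plates did not overlap in 11 pairs for Hspb1, 10 each for Hspa1b and Bag3, 7 for Hspa1a, 4 each for Dnaja1 and Hspa8, 2 for Hsph1, 1 for Hsp90ab1 and none for Dnajb1 and Hsp90aa1. The share of such pairs over all measured genes was not computed. Plates per class ran from 3 to 10, and fewer plates overlap less readily. These counts are therefore not read as a result about the chaperones. Hspb1 was at 319 to 876 CPM over the endothelial-like plates of both groups, against 65.3 to 132 CPM over the podocyte-like plates and 42.3 to 142 CPM over the mesangial-like plates. The endothelial-like plates lay above those of both other classes, and the podocyte-like plates lay within the range of the mesangial-like ones.

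Levels of different genes were compared per length of exon, taken over the annotated exons of all transcripts of a gene. That length ran from 1031 bases for Hspb1 to 8629 bases for Dnaja1. It can exceed the RNA that a cell makes, which lowers the value of genes with many transcripts, so the order is approximate. On that scale Hspb1 had the highest value of the 10 in endothelial-like cells, at 594 CPM per kb in IgAN and 602 CPM per kb in Control. Hsp90ab1 was close, at 555 and 568 CPM per kb. Hspa1a followed at 161 and 136 CPM per kb and Dnajb1 at 129 and 106 CPM per kb. Hspa8 had 118 and 103 CPM per kb, Hsp90aa1 96.7 and 73.3, Bag3 89.0 and 90.7, Dnaja1 42.6 and 35.1, Hsph1 23.6 and 18.5, and Hspa1b 22.8 and 19.5 CPM per kb, each in IgAN and Control.

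The pooled levels hide 2 kinds of gene in single cells. Hsp90ab1, Hspb1 and Hspa8 were present in nearly every endothelial-like cell, with median cells at 1674 and 1652 CPM, 605 and 611 CPM, and 518.5 and 434 CPM in IgAN and Control. Bag3 and Hsph1 were instead carried by a minority of cells. The median endothelial-like cell held 10.0 CPM of Bag3 in IgAN and 6.61 CPM in Control, while the 90th percentile of cells was at 742 and 793 CPM. For Hsph1 the median cell held 5.02 and 2.75 CPM, and the 90th percentile was at 669 and 519.8 CPM. Dnajb1 lay between these, with medians of 104 CPM in IgAN and 20.6 CPM in Control.

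The share of cells with at least 100 CPM gives the same order. Hspa1a reached 100 CPM in 605 of 1059 IgAN endothelial-like cells (57.1%, exact 95% interval 54.1% to 60.1%) and in 333 of 627 Control endothelial-like cells (53.1%). In T or NK cell-like cells, which were much lower in Hspa1a, it did so in 3.37% of IgAN cells and in 0 of 128 Control cells, which allows a share of up to 2.34%. Hspb1 reached it in 84.0% of IgAN and 90.3% of Control endothelial-like cells, Bag3 in 36.0% and 35.9%, and Hsph1 in 29.7% and 23.0%. With each cell thinned to 50000 reads, a read of Hspa1a was found in 80.7% of IgAN and 65.6% of Control endothelial-like cells, and still in 46.1% and 25.0% of T or NK cell-like cells. At full depth those shares were 93.4% and 83.9% in endothelial-like cells and 79.8% and 60.2% in T or NK cell-like cells. Single reads of Hspa1a were thus common in T or NK cell-like cells too, where the level was low, and the 100 CPM limit is used for that reason. A median of 6 of the 10 chaperones reached 100 CPM in an endothelial-like cell of either group, 4 in mesangial-like and podocyte-like cells and 3 in B or plasma cell-like cells. At least 7 reached it in 47.6% of IgAN and 39.4% of Control endothelial-like cells.

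Hspa1a and Hspa1b, the near-identical inducible HSP70 genes, went together. Hspa1b took 11.8% (exact 95% interval 11.7% to 12.0%) of the reads of the pair in IgAN endothelial-like cells and 11.9% (11.7% to 12.1%) in Control ones. Over the other classes besides the few neutrophil-like cells that share ran from 9.30% to 18.7%. Across the 1686 endothelial-like cells, with plates centred, the log2 values of the pair had a Pearson correlation of 0.86, which includes whatever reads the counting split between the copies.

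The second question was whether IgAN and Control differed in the same class of cells. In endothelial-like cells, the largest class, none of the 10 chaperones differed by as much as 1 on the log2 scale, and none had plates of IgAN apart from plates of Control. The log2 differences lay between -0.03 and 0.40, from Hsp90ab1 to Hsp90aa1. Together the 10 genes took 4889 CPM (exact 95% Poisson interval 4881 to 4898) in IgAN and 4527 CPM (4517 to 4537) in Control. The intervals cover counting error only. The plates ran from 3088 to 6273 CPM in IgAN and from 3604 to 5487 CPM in Control, and overlapped.

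Hsp90aa1, the stress-inducible HSP90, was lowest at 229.6, had a median of 435 and was highest at 561 CPM over the 6 IgAN plates, against 305, 315, 383 and 216 CPM on Control plates 314, 317, 321 and 326. The groups overlapped: plates 316 and 322 of IgAN lay below Control plate 321. Its pooled level was 380.3 CPM in IgAN and 288 CPM in Control, a log2 difference of 0.40, the largest of the 10. Hsph1 had a lowest plate of 36.7, a median of 215 and a highest plate of 272 CPM in IgAN, against 93.1, 209, 202 and 72.9 CPM in Control. Its log2 difference was 0.35, with pooled levels of 172 CPM in IgAN and 135 CPM in Control. The highest and the lowest plate of Hsph1 were both IgAN plates.

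Dnajb1, the J-domain partner of inducible HSP70, ranged from 175 over a median of 470.0 to 857 CPM in IgAN plates, against 296, 429, 379 and 279.9 CPM in Control plates. Dnaja1 ranged from 222 over 403 to 521 CPM in IgAN, against 349, 349, 324 and 215 CPM in Control. Both differed by 0.28 on the log2 scale. For both the lowest IgAN plate was 322, which lay below every Control plate for Dnajb1 and below all but plate 326 for Dnaja1. Hspa1a ranged from 319.9 over 436 to 677 CPM in IgAN plates, against 259.7, 577, 571 and 294 CPM in Control plates. The Control plates of Hspa1a fell into a lower pair, 314 and 326, and a higher pair, 317 and 321, and its log2 difference was 0.24. Hspa1b differed by 0.22, or by -0.02 without plate 326, and Hspa8 by 0.19. The differences of Bag3, Hspb1 and Hsp90ab1 were -0.03, -0.02 and -0.03.

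**Figure D2:**
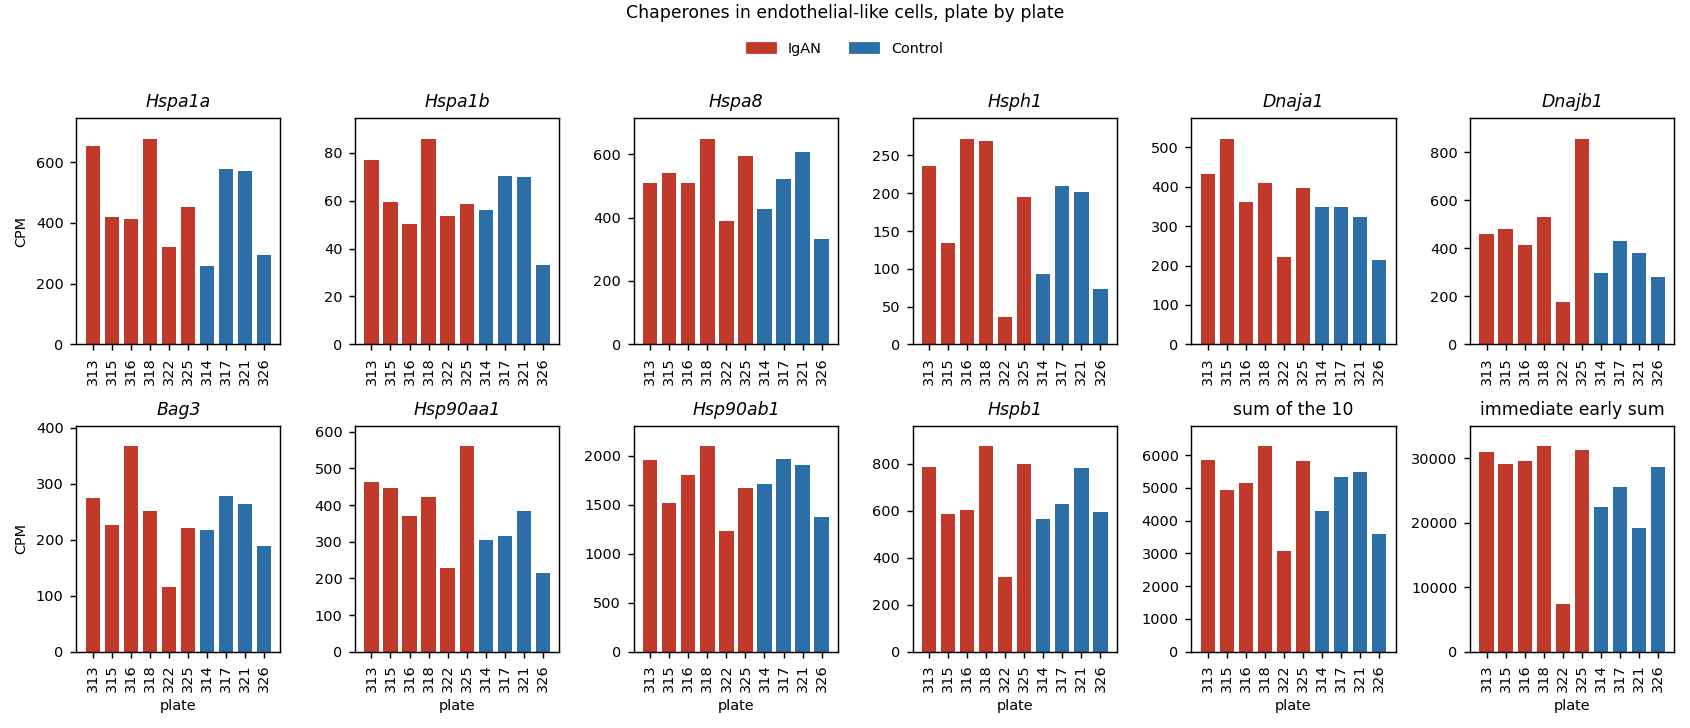
CPM of each chaperone in endothelial-like cells on each plate, IgAN plates left of Control plates, with the sum of the 10 genes and the sum of the immediate early genes in the last panels. Bars start at 0. The groups overlap for all 10 genes, and plate 322 is among the lowest bars, with Hsph1 at 36.7 CPM.

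Over the 10 genes the median log2 difference in endothelial-like cells was 0.23, with 7 of 10 above 0, against a median of 0.01 and 51.6% above 0 over all 9737 genes measured there. None of the 10 reached a log2 difference of 1 in either direction, which 4.20% of all measured genes did. None met the size rule, a log2 difference of at least 1 with the plates of the groups apart (1.55% of all measured genes), and none had plates apart at any size (3.92%). The median rested on single plates. It was 0.05 without Control plate 326 and 0.40 without Control plate 317, and 0.37 without IgAN plate 322.

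Plate 322 was low in most of these genes. Summed over the 10 genes its endothelial-like cells held 3088 CPM, against 4936 to 6273 CPM on the other IgAN plates. Immediate early genes, a fixed list of 30 fast response genes such as Fos and Egr1, summed to 7377 CPM on plate 322 and to 29134 to 31841 CPM on the other IgAN plates, with 19086 to 28613 CPM on Control plates. Of its 203 endothelial-like cells, 170 fell into 1 cluster led by the platelet genes Ppbp, Tubb1 and Gp5. In that cluster the 10 chaperones summed to 2936 CPM in 201 IgAN cells and 3837 CPM in 92 Control cells, and immediate early genes to 6220 and 8010 CPM. Without the cluster the median log2 difference of the 10 genes was 0.37. Depth was highest on plate 322, at a median of 396718 reads per cell. The part of these measures in the chaperone levels was not tested.

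Other clusters of endothelial-like cells differed in chaperones along with immediate early genes. The cluster led by Apold1, Sele, Egr1 and Btnl9 had the highest sum of the 10 genes, 6563 CPM in 191 IgAN cells and 5775 CPM in 32 Control cells, with 44321 and 39791 CPM of immediate early genes. In it Hsph1 was at 356 CPM in IgAN and 231 CPM in Control. The cluster led by Gm10800, Scn7a, 4930443O20Rik and Gpihbp1 held 293 IgAN and 16 Control cells, with 5852 and 5420 CPM of the 10 genes. The cluster that held most Control cells, 55 IgAN and 322 Control, had 5672 CPM in IgAN and 4635 CPM in Control. These clusters were formed without the 10 genes, but not without immediate early genes, and each group fills them differently.

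In mesangial-like cells, the matrix-forming cells between the capillaries, the chaperones also overlapped between plates. Dnajb1 had the largest difference of the 10, at 221, 108, 387 and 175 CPM on IgAN plates 313, 316, 318 and 325, against 82.9, 182 and 4.77 CPM on Control plates 314, 317 and 326. Control plate 317 lay above IgAN plates 316 and 325. The pooled level was 258 CPM in IgAN and 93.4 CPM in Control, a log2 difference of 1.46, which was 2.48 without plate 317 and 1.05 without plate 326. Hspa1a was at 169, 119, 290.1 and 25.1 CPM on the IgAN plates, against 27.1, 148 and 64.9 CPM on the Control plates, and differed by 0.98, or by 1.92 without plate 317 and 0.56 without plate 314. Its lowest plate was an IgAN plate and its groups overlapped. Hspa1b differed by 0.81 and Hsp90aa1 by 0.75 (318 CPM in IgAN and 189 CPM in Control), while Hspb1 differed by -0.42, Hsph1 by -0.47 and Bag3 by -0.12.

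Of the 10 genes measured in mesangial-like cells, 7 were above 0, and their median was 0.27 against 0.00 over all 10064 measured genes, of which 50.1% were above 0. Dnajb1 alone reached a log2 difference of 1, which 28.1% of all measured genes did (15.3% higher in IgAN). None met the size rule (4.63%), and none had plates apart (7.43%). The median ran from -0.02 without plate 326 to 0.59 without plate 317. It was 0.80 when the chaperones took part in the clustering, and Hspb1 was then at 1.44, so the direction of Hspb1 in these cells depends on how the class was drawn.

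**Figure D3:**
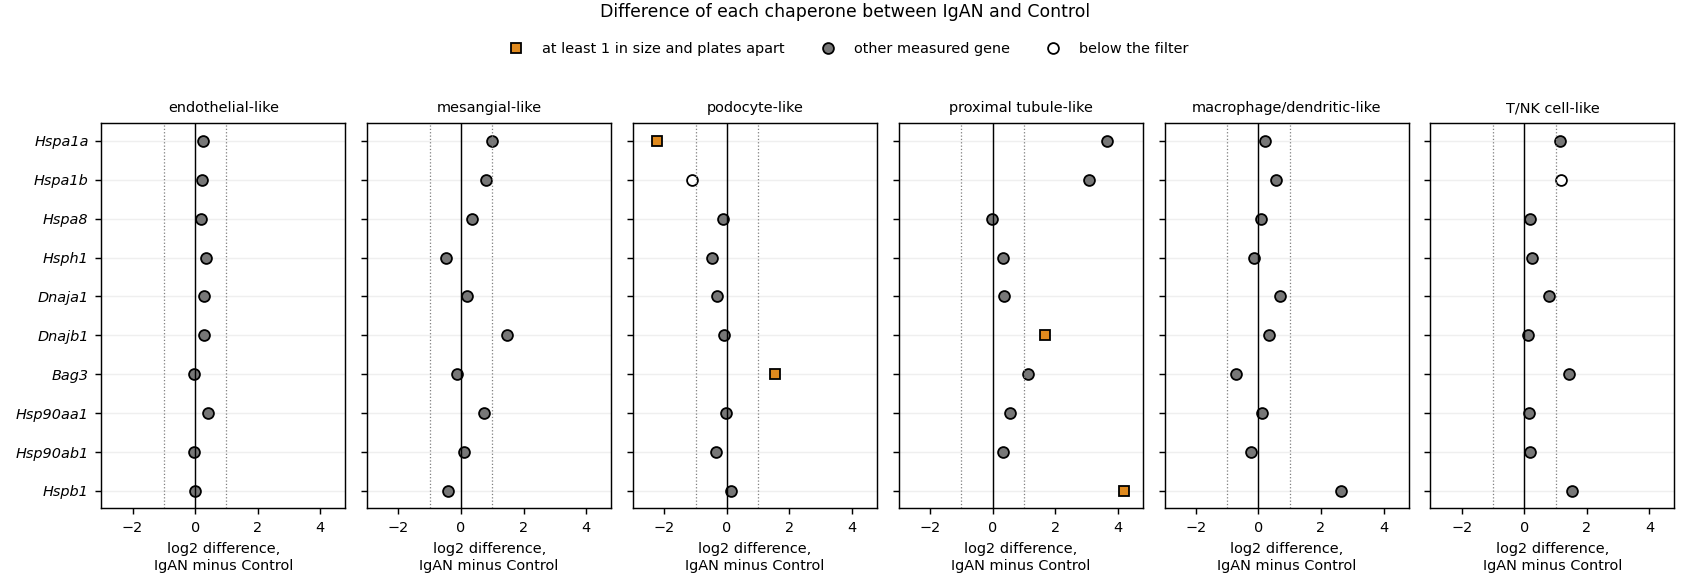
Log2 difference, IgAN minus Control with 1 CPM added, of each of the 10 chaperones in 6 cell classes, with dotted lines at a size of 1. Squares met the size rule, and open points were below the filter on low values. The squares are Bag3 and Hspa1a in podocyte-like cells and Hspb1 and Dnajb1 in proximal tubule-like cells, and the other 4 classes hold none.

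In podocyte-like cells, the epithelial cells whose foot processes carry the slit diaphragm, Bag3 was higher and Hspa1a lower in IgAN. Only 2 IgAN plates held 10 such cells, against 4 Control plates. Bag3 was at 168 and 159.6 CPM on IgAN plates 313 and 316, against 58.7, 24.3, 54.9 and 52.3 CPM on Control plates 314, 317, 321 and 326. Both IgAN plates lay above all Control plates. The pooled level was 142 CPM (exact 95% Poisson interval 135 to 149) in IgAN and 48.4 CPM (46.4 to 50.5) in Control, a log2 difference of 1.53. The median cell did not show it, with 2.40 CPM in IgAN and 2.89 CPM in Control. At least 100 CPM was found in 9 of 40 IgAN cells (22.5%, exact 95% interval 10.8% to 38.5%) and in 16 of 146 Control cells (11.0%, 6.40% to 17.2%), and these intervals overlap. The Bag3 difference met the size rule under every alternative that was run, but that rule reads only plates with at least 10 cells. Leaving out plate 313 or 316 left a single IgAN plate to compare, and leaving out any other IgAN plate changed no plate that the rule reads. The 15 IgAN cells on the other 4 plates gave 21.7 CPM on plate 315, 111 CPM on plate 318, 191 CPM on plate 322 and 40.6 CPM on plate 325, from 3 to 6 cells each. With these small plates the groups overlapped. Of the 9 IgAN cells at 100 CPM or more, 4 were on plate 313 and 2 on plate 316.

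Hspa1a in podocyte-like cells was at 3.60 and 3.44 CPM on the 2 IgAN plates, against 47.7, 130.3, 25.4 and 5.71 CPM on the Control plates. All Control plates lay above both IgAN plates, but plate 326 only just. Pooled over all cells the level was 10.1 CPM in IgAN and 50.6 CPM in Control, a log2 difference of -2.22. The IgAN plates with under 10 cells were higher than the 2 compared, at 10.2 to 25.0 CPM, and lay above Control plate 326. The median cell was at 5.77 CPM in IgAN and 4.49 CPM in Control, and at least 100 CPM was found in 0 of 40 IgAN cells, which allows a share of up to 7.50%, and in 10 of 146 Control cells (6.85%). The difference was -1.34 without Control plate 317 and 0.05 when podocyte-like cells were chosen by a marker gate per cell. Its direction thus depends on the choice of cells.

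**Figure D4:**
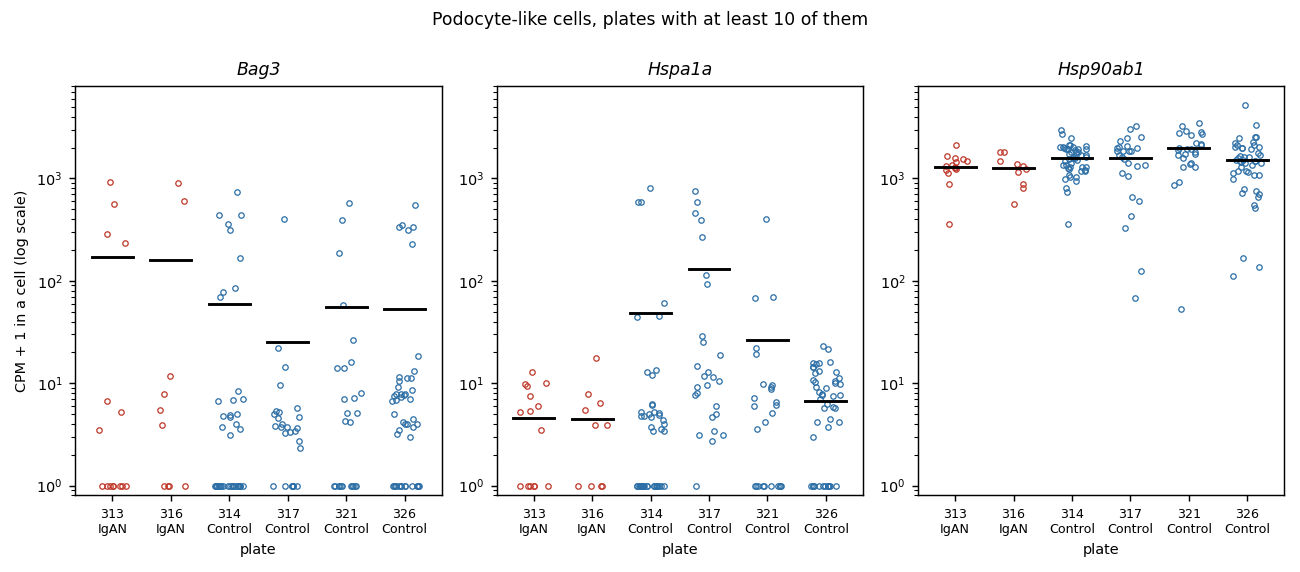
CPM + 1 on a log axis of Bag3, Hspa1a and Hsp90ab1 in each podocyte-like cell of the plates with at least 10 of them, IgAN plates left of Control plates. Points are cells and bars the level over all cells of the plate. Most cells lie near the foot for Bag3, and the bars of plates 313 and 316, at 168 and 159.6 CPM, are set by 4 and 2 cells above 100 CPM.

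Hsp90ab1, the constitutive HSP90, was at 1288 and 1277 CPM on the IgAN plates, against 1589.5, 1594, 1978 and 1517 CPM on the Control plates. Its plates were apart as well, at a log2 difference of -0.35 that is below the size limit. The other 6 measured genes overlapped between plates. Hspb1 differed by 0.15, Hsp90aa1 by -0.03, Dnajb1 by -0.08, Hspa8 by -0.11, Dnaja1 by -0.30 and Hsph1 by -0.46. Hspa1b, at 1.89 CPM in IgAN and 5.31 CPM in Control, did not pass the filter of 10 CPM in 10% of cells.

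Of the 9 genes that passed, 2 were above 0 in podocyte-like cells, with a median of -0.11 against -0.05 over all 9609 measured genes, of which 47.2% were above 0. Bag3 and Hspa1a reached a log2 difference of 1, as did 26.1% of all measured genes. They met the size rule as did 3.70% of genes in the higher and 6.14% in the lower direction. Plates were apart in 24.6% of all genes in this comparison with 2 IgAN plates. Immediate early genes summed to 5404 and 4840 CPM on the IgAN plates, against 12653, 7386, 8448 and 5316 CPM on the Control plates. All 10 podocyte markers were found, at 24306 CPM in IgAN and 26108 CPM in Control. Markers of smooth muscle or renin cells, in which the pooled Bag3 level was high, summed to 1392 CPM in IgAN and 792 CPM in Control podocyte-like cells. By plate the sums were 1391 to 1746 against 613 to 994 CPM, with 7 of 7 markers higher in IgAN and none at 0. Fibroblast markers summed to 588 and 100.3 CPM, with 2 of 6 at 0 in each group. Their part in the Bag3 and Hspa1a levels was not tested.

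In proximal tubule-like cells, the epithelium that takes back filtered solutes, Hspb1 and Dnajb1 met the size rule, both higher in IgAN. Hspb1 was at 279.8, 21.8, 86.6 and 370 CPM on IgAN plates 315, 316, 318 and 325, against 7.96, 16.6 and 10.6 CPM on Control plates 314, 317 and 321. Every IgAN plate lay above every Control plate, but plate 316 only by a little. The pooled level was 237 CPM in IgAN and 11.9 CPM in Control, a log2 difference of 4.20. Dnajb1 was at 226, 95.1, 294 and 372 CPM on the IgAN plates, against 65.2, 62.8 and 85.7 CPM on the Control plates, a log2 difference of 1.67. Hspa1a was at 144, 6.89, 117 and 320.2 CPM on the IgAN plates, against 6.16, 10.8 and 15.7 CPM on the Control plates. Its log2 difference was 3.65, but plate 316 lay among the Control plates.

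Endothelial markers were also higher in IgAN in these cells. They summed to 5195 CPM in IgAN proximal tubule-like cells and to 208 CPM in Control ones, with 11 of 11 markers higher in IgAN, while proximal tubule markers summed to 11770 and 22061 CPM. Immediate early genes, a list of fast response genes described above, summed to 12071 CPM in IgAN and 2281 CPM in Control. By plate, the endothelial sum was 5272, 235, 939 and 9752 CPM on IgAN plates 315, 316, 318 and 325, against 198, 308 and 149 CPM on the Control plates. Hspb1 and Hspa1a had the same order over the IgAN plates, while Dnajb1 was higher on plate 318 than on plate 315. IgAN plate 316, with the fewest endothelial reads, was lowest of the IgAN plates in Hspb1, Hspa1a and Dnajb1, but highest in Bag3, at 202 CPM against 73.7 to 83.6 CPM on the others. Its immediate early sum was also the lowest of the IgAN plates, at 1613 CPM. The part of endothelial RNA and of the immediate early response in these differences was not tested. Markers of 2 main classes were carried by 24 of 151 IgAN cells and 0 of 85 Control cells.

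In the 78 IgAN and 85 Control cells with under 1000 CPM of endothelial markers, a limit chosen after seeing the data, Hspb1 was at 23.5 CPM in IgAN and 11.9 CPM in Control (log2 difference 0.92). Hspa1a was at 26.5 and 12.2 CPM (1.06) and Dnajb1 at 115 and 74.3 CPM (0.62) in IgAN and Control. In the remaining 73 IgAN cells Hspb1 was at 479 CPM and Hspa1a at 322 CPM. The limit took out IgAN cells only. In the cells kept the Hspb1 difference was 0.92 on the log2 scale, against 4.20 in all cells, and neither Hspb1 nor Dnajb1 met the size rule. The part of endothelial RNA in this change was not tested. Of 13 alternatives besides leaving out plates, Hspb1 did not meet the rule under 2, the cells with under 1000 CPM of endothelial markers and the mean of per-cell CPM. Dnajb1 did not meet it under 5, among them the marker gate per cell (0.59) and clustering with all genes (0.72).

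**Figure D5:**
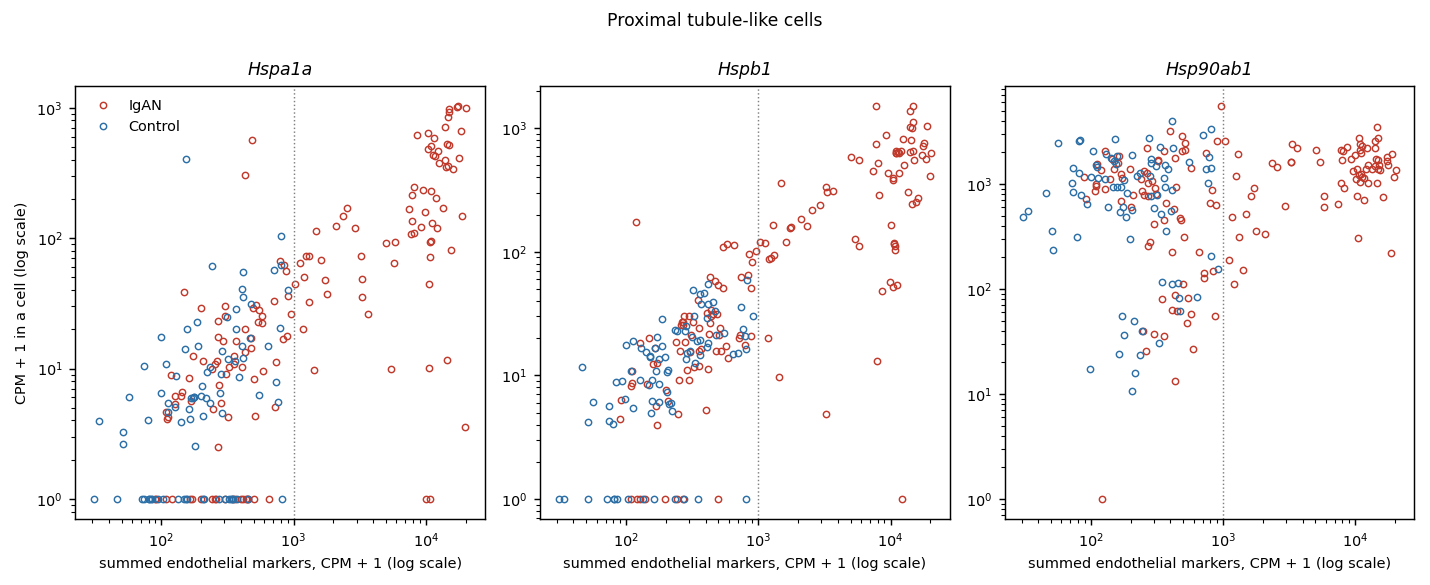
CPM + 1 of Hspa1a, Hspb1 and Hsp90ab1 in each proximal tubule-like cell against the summed CPM + 1 of endothelial markers in the same cell, both on log axes, IgAN in red and Control in blue, with a dotted line at 1000 CPM of endothelial markers. All 85 Control cells lie left of the line, and the 73 IgAN cells right of it reach the highest Hspa1a and Hspb1.

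Over all 10 genes the median log2 difference in proximal tubule-like cells was 0.83, with 9 of 10 above 0, against 0.32 and 61.9% above 0 over all 10338 measured genes. The 5 genes Hspb1, Hspa1a, Hspa1b, Dnajb1 and Bag3 were at least 1 higher, as were 30.7% of all measured genes, and 2 of 10 met the size rule, as did 6.97% in that direction. Hspa1b passed the filter on low values only through IgAN, at 19.5 CPM against 1.44 CPM in Control, so its place in the median and these counts was tied to its direction. Hsp90aa1 differed by 0.54 with its plates apart (284 to 444 CPM in IgAN, 241 to 263 CPM in Control), so that 3 of 10 genes had plates apart, as did 11.4% of all genes. Hspa8 differed by -0.04. Scaling by the median ratio over genes would lower every difference in this class by 0.33.

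In macrophage or dendritic-like cells Hspb1 ranged from 8.04 to 226 CPM over the 6 IgAN plates, against 9.93 to 18.2 CPM over the 4 Control plates, and the lowest plate was an IgAN plate. The pooled level was 94.6 CPM in IgAN and 14.5 CPM in Control, a log2 difference of 2.62. Endothelial markers summed to 1577 CPM in IgAN and 498 CPM in Control, and in cells with under 1000 CPM of them Hspb1 was at 24.5 CPM in IgAN and 13.4 CPM in Control. Hspb1 alone was at least 1 higher, against 12.2% of all measured genes, and none of the 10 met the size rule (1.25%). The median of the 10 genes was 0.16, with 7 above 0, against 0.06 and 54.3% above 0 over all 9759 measured genes.

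In T or NK cell-like cells, 9 of the 10 genes passed the filter and all 9 were above 0, with a median of 0.26 against 0.05 over all 9445 measured genes, of which 52.7% were above 0. Hspb1 (1.53), Bag3 (1.44) and Hspa1a (1.15) were at least 1 higher, against 13.7% of all measured genes, and none met the size rule (1.68%). Hspa1a passed the filter only through IgAN, at 15.4 CPM against 6.39 CPM in Control, so its being counted here was tied to its direction. Hspb1 was at 41.8 CPM in IgAN and 13.8 CPM in Control, and at 24.9 and 13.4 CPM in cells with under 1000 CPM of endothelial markers, a log2 difference of 0.84. Without plate 325 the Hspb1 difference was 0.93, while that of Bag3 was 1.45. Leaving out other plates, the Bag3 difference ran from 1.01 without plate 318 to 2.12 without plate 317. Its plates ran from 2.49 to 128 CPM in IgAN and from 2.31 to 55.1 CPM in Control, and overlapped. Endothelial markers in this class summed to 1090.4 CPM in IgAN and 524 CPM in Control. Dnaja1, which is high in endothelial-like and T or NK cell-like cells alike, was at 393 CPM in IgAN and 229 CPM in Control (log2 difference 0.78), with plates from 285 to 536 CPM in IgAN and 153 to 332 CPM in Control.

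Other chaperones were read from a list of 62 genes of the network (endoplasmic reticulum, mitochondrial and chaperonin members, further J-domain, BAG and small heat shock genes). In endothelial-like cells 54 of them were measured, 30 were above 0, the median log2 difference was 0.04 and none met the size rule. Over all measured genes 51.6% were above 0 and 1.55% met that rule. The 4 with most reads, a choice by CPM and not a ranking per length, included Hspa5, the HSP70 of the endoplasmic reticulum, at 779.9 CPM in IgAN and 704 CPM in Control. Its HSP90, Hsp90b1, was at 643 and 657 CPM, and the others were the chaperonin subunits Cct7 (325 and 309.7 CPM) and Cct5 (265 and 246 CPM). In mesangial-like cells the median was -0.12, and Dnajb9, a J-domain protein of the endoplasmic reticulum, was the 1 of 54 measured genes that met the size rule (4.63% of all genes), at 42.6 CPM in IgAN and 87.5 CPM in Control. The 4 with most reads there were Hspa5 (739.5 and 956 CPM), Hsp90b1 (728 and 797 CPM), the HSF1-binding Hsbp1 (287 and 389.7 CPM) and Stub1, a ubiquitin ligase that works with HSP70 (264 and 269 CPM), each in IgAN and Control. In podocyte-like cells the median was 0.02 over 53 measured genes. Of these, 1 met the size rule in the higher direction and 3 in the lower one, which 3.70% and 6.14% of all measured genes did. Hspb2, a small heat shock gene known from muscle, was higher, at 40.3 CPM in IgAN and 17.8 CPM in Control. In the lower direction it was met by Dnajb4, a J-domain gene, at 70.8 CPM in IgAN and 168 CPM in Control. The HSP70 gene Hspa2 (2.97 and 17.2 CPM) and the exchange factor gene Bag4 (16.6 and 39.4 CPM) met it too. Hspa2 counted as measured only through Control, where it was higher. The 4 with most reads there included Hspa5 (1220 and 1552 CPM) and Hsp90b1 (980.1 and 1149 CPM). The others were small heat shock genes: Cryab, at 1109 CPM in IgAN and 961 CPM in Control, and Hspb8, at 410.1 and 394 CPM. Hspb8 is the usual partner of Bag3.

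Immediate early genes had a median log2 difference of -0.05 in endothelial-like, 0.04 in mesangial-like, -0.83 in podocyte-like, 3.07 in proximal tubule-like, -0.32 in macrophage or dendritic-like and 0.27 in T or NK cell-like cells. In proximal tubule-like cells the median by plate ran from -0.33 to 3.74 in IgAN and from -0.35 to 0.30 in Control, and overlapped. The median over all measured genes there was 0.32. Some list genes, in podocyte-like cells among others, counted as measured only through the group where they were higher. In podocyte-like cells Fos, Fosb, Jun, Junb, Egr1, Ier2, Zfp36, Dusp1 and Socs3, 9 of 24 measured, met the size rule in the lower direction (6.14% of all genes) and Nr4a1 and Gadd45b in the higher one (3.70%). Egr1 was at 169 CPM in IgAN and 755 CPM in Control podocyte-like cells, and Nr4a1 at 2198 and 852 CPM. In proximal tubule-like cells Egr1, Ier3, Gadd45b, Rhob and, of the network, Bag5 met it, all higher in IgAN (6.97% of all genes).

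The last question was whether the chaperones varied together from cell to cell. Across 1686 endothelial-like cells with plates centred, the 44 pairs other than Hspa1a with Hspa1b had Pearson correlations of log2(CPM + 1) between 0.07 and 0.28, with a median of 0.15. The highest was that of Hspa1a with Hspb1 and the lowest that of Dnaja1 with Hsph1. The median was 0.10 in 149 mesangial-like and 0.07 in 186 podocyte-like cells. These values are a description. Cells share plates and depth, and correlations this weak in sparse counts are not read as links between genes.

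In endothelial-like cells the chaperones followed the immediate early genes to different degrees. The correlation with the immediate early sum was 0.39 for Hspa1a, 0.38 for Hspa1b and Hspb1, and 0.34 for Hspa8, against 0.13 for Bag3 and 0.10 for Hsph1. In mesangial-like and podocyte-like cells it was 0.39 and 0.22 for Hspa1a, 0.17 and 0.18 for Hspa8, and 0.01 and 0.10 for Hspb1. Reads per cell correlated by 0.27 with Hsp90ab1 and 0.22 with Dnaja1 in endothelial-like cells. The mean log2(CPM + 1) of the 10 chaperones was set against single genes of at least 50 CPM, leaving out the chaperones, the genes of the other lists and unnamed gene models. Over 62 sums of a plate and a class it was most like Acer2 and Cmtm8 (Pearson correlation 0.82 each), Ppap2a (0.81) and Sema3f, Ushbp1, Serpina3h, Egfl7 and Cx3cl1 (0.80 each), of 4884 genes ranked. These sums share plates and cell classes. Egfl7 is a gene of endothelial cells. Across the endothelial-like cells, plates centred, it was most like Junos (0.37), Plk2 (0.33), Sertad1 and Atf4 (0.30 each), Apold1 and H3f3b (0.27 each) and Irf1 and Pim3 (0.26 each), of 4243 genes. Atf4 is a transcription factor of the integrated stress response.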

How the data were processed

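Per the labels' protocols, cells of the glomerular fraction were sorted into plates and sequenced by Smart-seq2. The authors deposited raw read counts per gene and cell. They used TopHat2 2.1.1, SAMtools 0.1.18, featureCounts, Subread 1.4.6-p5 and GRCm38 (mm10), per the submitters' processing notes. The sources used here give neither the annotation nor the strand setting. Without molecular identifiers, copies made by PCR add to every count.

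To group cells, counts of genes seen in 5 or more cells were brought to 100000 reads per cell and log scaled, leaving out the 10 chaperones and the 62 network genes. Variable genes (2000) gave 30 principal components, from which Leiden clustering (15 neighbours, resolution 1) made 20 clusters. Fixed markers of 13 classes named them, giving 11 classes. Doublets were not called, but an alternative left out cells with at least 50 CPM of the markers of 2 main classes.

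Within each class and group, reads were pooled and expressed as CPM. Differences are log2 ratios of IgAN over Control after adding 1 CPM. Measured genes had 10 CPM or more and a read in at least 10% of cells in 1 group, and plates entered with 10 cells or more. Besides the 3 main classes (endothelial-, mesangial- and podocyte-like), classes with 3 such plates on either side were compared. Each group is 1 sample, so no test was run and no p-value is given. Intervals are exact at 95% (Poisson for reads, Clopper-Pearson for shares), and a count of 0 was read as up to 3 counts. The size rule was tried on counts simulated from the endothelial-like cells and their plates only. That trial did not cover classes with fewer plates, such as podocyte-like and proximal tubule-like cells. Named genes were the 10 members, list genes that met the size rule, the 4 network genes with the most reads of each main class and the 8 genes most like the mean log2 level of the 10. A list gene that met the rule is not reported here.

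Positions come from GENCODE vM21 and promoters from RefSeq. The members, lists and rules were chosen with earlier results of these data known. The tools were Python 3.11.15, scanpy 1.11.5, leidenalg 0.10.2, scipy 1.17.1, numpy 2.4.6, pandas 2.3.3, biopython 1.88 and matplotlib 3.10.9.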

Additional observations from a re-analysis of the deposited data

Results flagged for a closer look

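Within each group of 4 to 10 plates of a class, the highest or lowest plate was set against the others by Dixon's criterion, which chance passes in about 1 in 20 groups. Of 90 such groups of plates, 6 passed. Bag3 in proximal tubule-like cells of IgAN was at 202 CPM on plate 316, above 73.7 to 83.6 CPM on the other 3 plates. Dnaja1 in macrophage or dendritic-like cells of Control was at 198 CPM on plate 314, above 114 to 120.1 CPM on the others. Hsp90aa1 was low on Control plate 326 in T or NK cell-like cells, at 261 CPM below 408 to 418 CPM, and in podocyte-like cells, at 241 CPM below 386 to 412 CPM. Hsp90ab1 in podocyte-like cells of Control was at 1978 CPM on plate 321, above 1517 to 1594 CPM. Hspb1 in T or NK cell-like cells of IgAN was at 246 CPM on plate 325, above 9.98 to 60.6 CPM on the others. Endothelial markers in those cells summed to 3709 CPM on plate 325 and to 429 to 1995 CPM on the other IgAN plates, and their part in the Hspb1 value was not tested.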

How the results depend on the processing

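For the median differences and summed levels of the 3 main classes, 197 of 204 alternative values moved by less than the spread of plates and 7 moved by more. The podocyte-like median, -0.11 as reported, changed sign with a marker gate per cell (0.07) and without plate 321 (0.01), and the mesangial-like median, 0.27 as reported, without plate 326 (-0.02). The 7 were the summed CPM of the 10 genes in IgAN podocyte-like cells, where the compared plates lay close together. It was 2423 CPM as reported, 2466 with median-of-ratios scaling, 2573 as the mean of per-cell CPM, 2703 with a marker gate per cell, 2333 without cells with markers of 2 main classes, 2377 in cells of at least 100000 reads and 2353 in cells below 1000 CPM of endothelial markers, and 2385 to 2523 CPM leaving out 1 plate at a time. The Hspa1a difference in podocyte-like cells, -2.22 as reported, was 0.0486 with the marker gate, the opposite direction, and the cause was not tested. Leaving out 1 plate at a time, the median log2 difference ran from 0.05 to 0.40 in endothelial-like, -0.02 to 0.59 in mesangial-like, -0.40 to 0.01 in podocyte-like, 0.63 to 1.13 in proximal tubule-like, 0.03 to 0.31 in macrophage or dendritic-like and 0.19 to 0.60 in T or NK cell-like cells. Of 1577 further values, 1556 moved by less than the spread of plates. Mesangial-like cells gave no value below 1000 CPM of endothelial markers. The alternatives on Gm13340, endothelial markers, platelet genes and plate weights were chosen after seeing the data. No paired analysis was possible because each group is 1 sample and no number ties IgAN cells to Control cells.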
